A study of Mus musculus with 4 samples.

Results

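Notch signalling genes were examined in 4 RNA-sequencing libraries of mouse T cells. The set holds the receptors Notch1, Notch2, Notch3 and Notch4, the nuclear partners Rbpj and Maml1, and the pathway targets Hes1 and Dtx1. These are 8 of the 50600 genes counted, and all 8 were found by matching the deposited gene identifiers to GENCODE symbols. The libraries are biological replicates 1 to 4 of 1 group, primary T cells of strain C57BL/6NJ mice with no recorded age or sex, and the labels give no second condition. The file headers call the cells Th0, activated, sorted and taken at 72 h. Th0 is the usual name for CD4 T cells activated without cytokines that steer them to a helper subset. All 4 libraries carry 1 donor entry, and nothing in the labels says whether they came from separate animals or cultures, so each SD below is the spread between these libraries and may be technical.

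The libraries held between 34978213 read pairs (replicate 1) and 118937382 (replicate 2) assigned to genes. Levels are given as TPM, a share of transcripts scaled to the same total in every library, computed from the deposited counts and exon lengths, so that genes of different length can be compared. All 8 T cell markers checked, from Cd3g at a mean of 253 TPM to Trac at 1892 TPM, were present in every library. Of 31 markers of endothelial, mural, B, myeloid and immature thymic cells, 3 reached 1 TPM in every library.

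Notch receptors are single-pass membrane proteins that are switched on by ligands on a neighbouring cell. Ligand binding exposes the receptor to the protease Adam10, and the gamma-secretase complex then cuts it inside the membrane. The freed intracellular part moves to the nucleus, where it joins the DNA-binding protein Rbpj and a Mastermind coactivator and turns on targets such as the Hes repressors. In the thymus, Notch1 commits progenitors to the T lineage, and Notch receptors are used again by mature CD4 T cells after activation.

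Notch2 and Notch1 were the abundant receptors, Notch3 was near 1 TPM and Notch4 had few read pairs in any library. Notch2 (ENSMUSG00000027878.11, chromosome 3, 98013527 to 98150361, plus strand, mm10), the receptor best known for its role in marginal zone B cells, stood at 116.6, 136.4, 158.7 and 141.7 TPM in replicates 1 to 4. Notch1 (ENSMUSG00000026923.15, chromosome 2, 26457903 to 26516663, minus strand, mm10) stood at 52.4, 62.2, 68.3 and 63.7 TPM. Both receptors were lowest in replicate 1 and highest in replicate 3, and their ranges did not overlap. In these bulk libraries, fewer cells that express a gene and less RNA per cell cannot be told apart.

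Notch1 minus Notch2 was -1.16 ± 0.04 on the log2(TPM + 0.1) scale (SD, n = 4), and Notch2 was the higher in 4 of 4 libraries (two-sided exact permutation of signs, p = 0.143 adjusted over 8 contrasts). With 4 libraries the smallest unadjusted p of this test is 2 of 16 sign patterns, which all contrasts below reached except that of Hes1 and Dtx1, so no contrast between genes can pass 0.05. The ratio of Notch2 to Notch1 lay between 2.19 and 2.32. It was between 1.50 and 1.59 when each gene's principal transcript gave the length, because the exons annotated for Notch1 add up to 14232 bases and its principal transcript has 9488. Of the summed TPM of the 4 receptors, which ran from 169.6 in replicate 1 to 228.5 in replicate 3, Notch2 took 68.8% ± 0.50 and Notch1 30.7% ± 0.53 (SD, n = 4). The share of Notch2 stayed between 68.3% and 69.5% while the sum moved over that range. These shares also depend on the length used. With principal transcript lengths Notch2 had a mean of 99.3 TPM and Notch1 64.6, which gives Notch2 a smaller share.

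Notch3 (ENSMUSG00000038146.7, chromosome 17, 32120820 to 32166880, minus strand, mm10), which marks vascular mural cells and is also found on thymocytes, had 0.540, 1.10, 1.37 and 1.21 TPM in replicates 1 to 4, from 49, 322, 143 and 288 read pairs. Replicate 1 was low and the other libraries lay close together. Its exact 95% Poisson interval in replicate 1, 0.399 to 0.713 TPM, lay below the intervals of the other libraries, of which the lowest bound was 0.982. Such intervals cover counting error only, since read pairs without molecular identifiers are not independent molecules.

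Notch4 (ENSMUSG00000015468.14, chromosome 17, 34564268 to 34588503, plus strand, mm10), a receptor of endothelial cells, had 0.0769, 0.109, 0.0861 and 0.0462 TPM, from 7, 32, 9 and 11 read pairs. The exact 95% Poisson intervals of the 4 libraries all overlapped, but overlap is not a test of difference. Notch4 did not pass the filter on low counts of the test of variation described below. Without that filter its unadjusted p was 0.906 (edgeR goodness of fit), from few read pairs. Notch1 exceeded Notch3 by 5.80 ± 0.38 log2 and Notch4 by 8.43 ± 0.27, Notch2 exceeded them by 6.96 ± 0.37 and 9.59 ± 0.28, and Notch3 exceeded Notch4 by 2.63 ± 0.58 (SD, n = 4). All 5 of these contrasts had 1 direction in 4 of 4 libraries (by the same exact permutation, adjusted p = 0.143 for each). The pseudocount of 0.1 understates the distance of genes as low as Notch4.

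**Figure D1:**
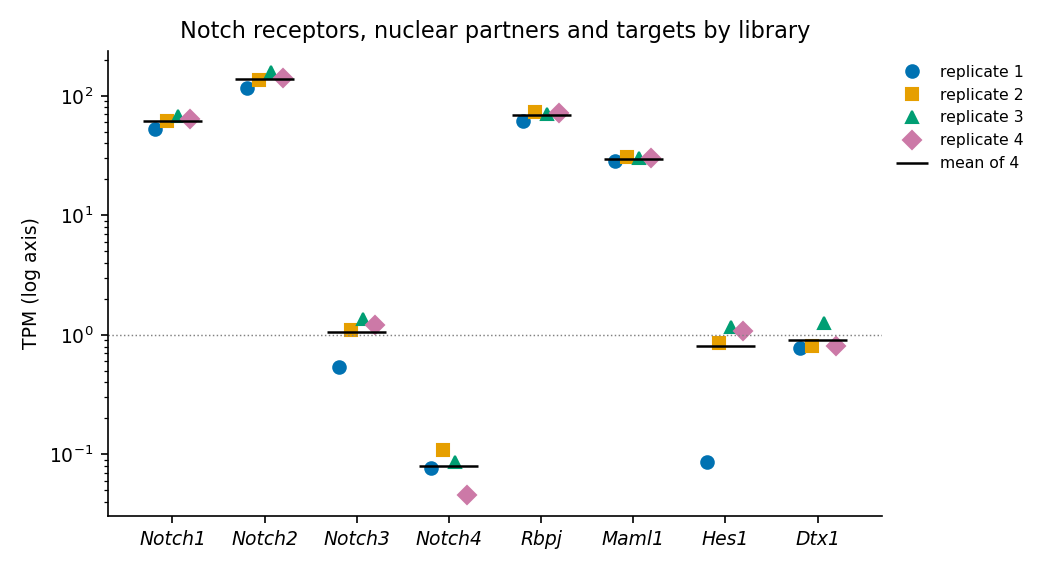
TPM of the 8 Notch genes on a log axis in each of 4 libraries (coloured symbols), with the mean of the 4 as a black line and 1 TPM dotted. Notch2, Rbpj, Notch1 and Maml1 lie between 28.3 and 158.7 TPM in every library, while Notch3, Hes1, Dtx1 and Notch4 lie at 1.37 TPM or below.

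Both nuclear partners were expressed in every library, Rbpj within a 1.17-fold range of TPM and Maml1 within 1.08-fold. Rbpj (ENSMUSG00000039191.12, chromosome 5, 53466152 to 53657362, plus strand, mm10), the DNA-binding factor through which the receptors act, stood at 62.0, 72.6, 70.1 and 71.7 TPM in replicates 1 to 4. In TPM it was lowest in replicate 1, with the other libraries within a narrow band. Its level depends on the length used, since its annotated exons add up to 12750 bases and its principal transcript has 5440, and with the principal transcript it was 113.2 ± 7.45 TPM in place of 69.1 ± 4.85 (SD, n = 4). The processed pseudogene Rbpj-ps3 carried 91, 295, 127 and 375 read pairs, at most 1.39% of those of Rbpj. Reads that fit both copies equally well are in neither count, and how many there were was not measured, so the level of Rbpj is uncertain.

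Maml1 (ENSMUSG00000050567.16, chromosome 11, 50255634 to 50292311, minus strand, mm10), a Mastermind coactivator that binds the Rbpj and Notch complex, stood at 28.3, 30.5, 30.3 and 29.9 TPM. The 4 values differed by at most 1.08-fold. Rbpj exceeded Maml1 by 1.21 ± 0.06 log2 (SD, n = 4) in 4 of 4 libraries (by the same exact permutation, adjusted p = 0.143). With principal transcript lengths the difference was 2.44 log2, and the mean of Maml1 was 20.8 TPM in place of 29.8. The length of Maml1 itself was 5528 bases either way. Its TPM moved because the lengths of other genes changed the total to which TPM is scaled. Maml2 was at 17.4 ± 0.315 TPM and Maml3 at 1.45 ± 0.298 (SD, n = 4), so Maml1 was the highest of these coactivators in every library. Rbpjl, a paralog of Rbpj best known from pancreas, had a count of 0 in all 4 libraries, which allows at most 3 counts in each, or 0.0252 CPM (counts scaled to the same total in every library) in the deepest.

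Rbpj binds DNA at sites with the core TGGGAA, and RefSeq promoter windows of GRCm38.p6 were searched for these letters on both strands (TGGGAA or TTCCCA, overlaps allowed). Each window runs from 250 bases before an annotated start of a gene to 50 after it, and a gene can have more than 1 window. A window was given for 7 of the 8 members, all but Hes1, and of these only Rbpj held the core, against 28.3% of the 27025 genes with a window and 25.6% of all 32851 windows. Of the 55 other pathway genes with a window, 18 (32.7%) held it, a share near that of all genes. By list, it was held by 3 of 4 Hes and Hey family genes (Hes5, Hes7 and Hey2), 3 of 9 T-lineage target genes (Ptcra, Cd3e and Igf1r) and 3 of 6 nuclear partners. It was also held by 2 of 4 glycosylation genes, 3 of 9 cleavage genes, 2 of 8 ubiquitin and trafficking regulators, 2 of 8 corepressors and 0 of the 5 canonical and 2 non-canonical ligands. The windows of Rbpj, Hes5 and Ptcra are shown because each holds the core in 2 places, and because they belong to an abundant member and to targets with few read pairs. Hey2 and Lfng also hold it in 2 places, and 3.79% of all windows hold it in 2 or more. Capitals mark the core on either strand, and a match is only a description of these letters.
Rbpj, chr5:53590096-53590395, plus strand: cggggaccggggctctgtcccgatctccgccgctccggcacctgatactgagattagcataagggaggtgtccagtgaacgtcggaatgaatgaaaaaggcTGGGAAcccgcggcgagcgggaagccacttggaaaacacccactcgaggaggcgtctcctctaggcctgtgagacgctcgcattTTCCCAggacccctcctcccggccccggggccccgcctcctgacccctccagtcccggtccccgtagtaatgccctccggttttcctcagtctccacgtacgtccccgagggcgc
Hes5, chr4:154960673-154960972, plus strand: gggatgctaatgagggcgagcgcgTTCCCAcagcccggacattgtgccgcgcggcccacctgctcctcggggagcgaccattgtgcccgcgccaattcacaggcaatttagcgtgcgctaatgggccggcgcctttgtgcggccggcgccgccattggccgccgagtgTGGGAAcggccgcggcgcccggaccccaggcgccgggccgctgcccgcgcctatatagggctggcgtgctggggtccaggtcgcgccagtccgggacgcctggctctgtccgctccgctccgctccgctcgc
Ptcra, chr17:46763663-46763962, minus strand: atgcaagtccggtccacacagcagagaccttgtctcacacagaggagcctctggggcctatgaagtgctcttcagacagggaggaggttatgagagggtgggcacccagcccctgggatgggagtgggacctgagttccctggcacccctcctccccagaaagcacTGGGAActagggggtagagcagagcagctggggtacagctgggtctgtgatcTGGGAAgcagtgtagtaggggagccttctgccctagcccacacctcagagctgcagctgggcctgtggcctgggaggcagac
The cores begin 149 and 65 bases before the start used for the window in Rbpj, 226 and 82 in Hes5, and 84 and 32 in Ptcra. Rbpj has 2 windows, both with the core. The 1 shown belongs to a start inside the gene, whose span given above begins at 53466152. Hes5, a Notch-induced repressor of neural progenitors, had 0, 10, 7 and 20 read pairs in replicates 1 to 4. Ptcra, the pre-T cell receptor alpha chain made in immature thymocytes, had 0, 13, 0 and 6.

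The target genes Hes1 and Dtx1 were near 1 TPM, far below the receptors that were abundant. Hes1 (ENSMUSG00000022528.7, chromosome 16, 30064384 to 30067796, plus strand, mm10), a basic helix-loop-helix repressor and a standard readout of Notch activity, had 2, 64, 31 and 65 read pairs in replicates 1 to 4, or 0.0870, 0.862, 1.17 and 1.08 TPM. Replicate 1 stood apart at the low end. Its exact 95% Poisson interval, 0.0105 to 0.314 TPM, lay below the lowest bound of the other libraries, 0.664 TPM in replicate 2. Because of replicate 1, Hes1 did not pass the filter on low counts and had no place in the test of variation across all genes described below. Without that filter its p was 0.0470 (edgeR goodness of fit, Benjamini-Hochberg adjusted p = 1.00).

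Dtx1 (ENSMUSG00000029603.15, chromosome 5, 120680202 to 120711927, minus strand, mm10), an E3 ubiquitin ligase of the Deltex family that is both a Notch target and a regulator of T cell anergy, had 0.773, 0.807, 1.26 and 0.810 TPM, from 46, 155, 86 and 126 read pairs. Replicate 3 was high and the others were close to each other. Its exact 95% Poisson interval, 1.01 to 1.55 TPM, lay above those of replicates 2 and 4 and overlapped that of replicate 1, 0.566 to 1.03 TPM. Hes1 minus Dtx1 was -0.46 ± 1.19 log2 (SD, n = 4), with Hes1 the higher in 2 of 4 libraries (by the same exact permutation, p = 0.75 and adjusted p = 0.75). Without replicate 1 the mean difference was 0.12, so its sign rests on the 2 Hes1 read pairs of that library. On CPM scaled with TMM (trimmed mean of M values, a correction for library composition), which takes no account of gene length, the difference was -1.63 log2 and Hes1 was the higher in 0 of 4 libraries.

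**Figure D2:**
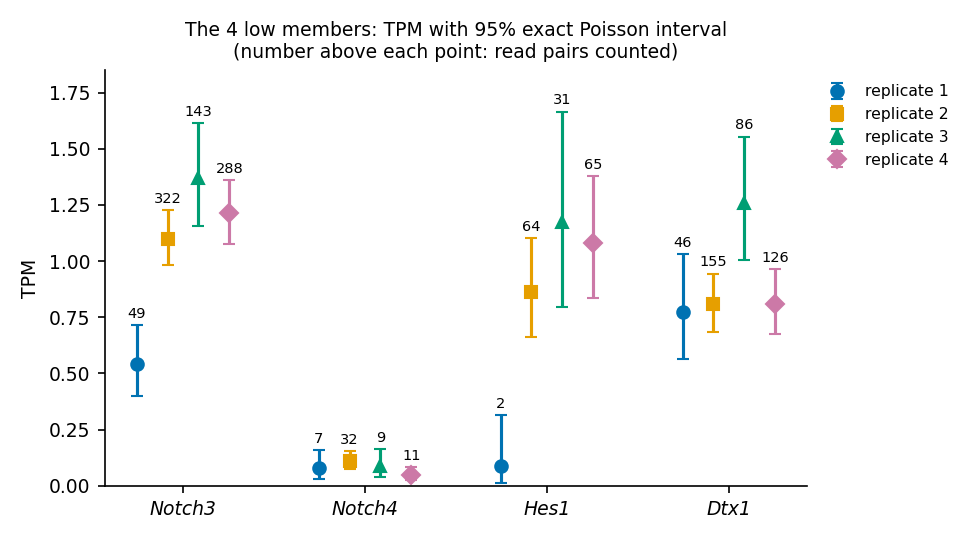
TPM of the 4 low members in each library with exact 95% Poisson intervals, and the read pairs behind each point written above it. The 2 read pairs of Hes1 and the 49 of Notch3 in replicate 1 give intervals below those of the other libraries, while the intervals of Notch4 overlap.

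Ranked by mean TPM, the order was Notch2, Rbpj, Notch1, Maml1, Notch3, Dtx1, Hes1 and Notch4. Neighbours whose ranges over the 4 libraries did not overlap were Notch2 and Rbpj, Notch1 and Maml1, and Maml1 and Notch3. Rbpj was above Notch1 in 4 of 4 libraries although their ranges overlapped, Notch3 was above Dtx1 in 3 of 4 and Dtx1 above Hes1 in 2 of 4. With principal transcript lengths Rbpj was above Notch2 in 4 of 4 libraries, at 113.2 against 99.3 TPM, and Dtx1 had a higher mean than Notch3. Among 21764 protein-coding genes, Notch2 ranked 1390, Rbpj 2952, Notch1 3280 and Maml1 5647 by mean TPM, while Notch3, Dtx1 and Hes1 ranked between 11144 and 11386 and Notch4 ranked 13461. The 4 high members reached 1 TPM in every library, as did 24.8% of all genes and 49.9% of the protein-coding genes, so the share of members, 4 of 8, was near that of protein-coding genes.

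Next, each gene was asked whether it varied between the 4 libraries more than other genes of its level. Of the 8 members, 6 passed the filter on low counts (Notch1, Notch2, Notch3, Rbpj, Maml1 and Dtx1), and 0 of these 6 were called by edgeR (goodness of fit, dispersion trended on level) at an adjusted p below 0.05, against 0.463% of the 14269 genes tested. At an unadjusted p below 0.05, 0 of the 6 were called, against 5.69% of genes. The lowest value was that of Notch3, with an SD of 0.55 log2 CPM (edgeR adjusted p = 0.988). Under a common dispersion for all genes, which calls 955 genes, Notch3 was called (edgeR adjusted p = 0.0224).

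The SD of log2 CPM was 0.12 for Notch1, 0.14 for Notch2, 0.07 for Rbpj, 0.30 for Dtx1 and 0.01 for Maml1, with a median of 0.12 over the genes tested. Of the 500 tested genes nearest in level, 0.2% had a smaller SD than Maml1 and 49.4% a smaller SD than Rbpj. The share was 86.6% for Notch1 and 94.6% for Notch2. Scaled with TMM, Maml1 lay at 50.9, 51.7, 51.0 and 51.4 CPM in replicates 1 to 4. Rbpj lay at 257.4, 283.7, 272.0 and 283.9 CPM, so that on this scale replicate 3 lay between replicate 1 and the rest.

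**Figure D3:**
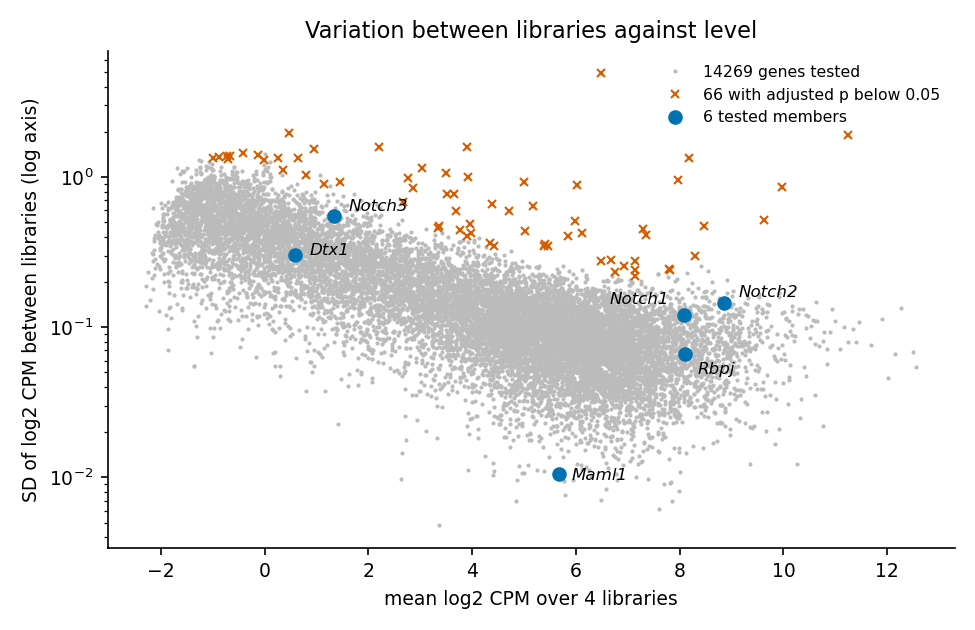
SD of log2 CPM between the 4 libraries (log axis) against mean log2 CPM for the 14269 genes tested, with the 66 genes called as crosses and the 6 tested members as labelled points. Notch1, Notch2 and Notch3 lie in the upper part of the cloud, Maml1 at its lower edge, and no member is among the crosses.

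On CPM scaled with TMM, replicate 1 was the lowest library for 5 of the 6 tested members, all but Dtx1. Of the members not tested, Hes1 was also lowest there, while Notch4 was lowest in replicate 4. For Maml1 the margin was small, at 50.9 CPM in replicate 1 against 51.0 in replicate 3. Across the genes tested, replicate 1 was the lowest library for 31.9%. Replicate 1 is also the library with the fewest read pairs, and its deviations ran against the GC content of genes, with Spearman's rho of -0.26 across 12159 tested protein-coding genes, while those of replicate 4 had a rho of 0.26. These rhos are across genes of 1 library, and genes are not independent. Deviations of replicate 3 ran with gene length (rho 0.28). The transcripts of Notch1, Notch2, Notch3, Notch4, Maml1 and Dtx1 have a GC content of 53.6% to 62.5%, above the median of 50.5% over tested protein-coding genes, while that of Hes1 is close to it at 50.7% and that of Rbpj below it at 44.0%.

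After a correction of each library for GC content and length, the deviation of replicate 1 from the mean over libraries was -0.05 log2 for Notch1 in place of -0.16, and -0.10 for Notch2 in place of -0.17. The SD of Notch1 was 0.04 in place of 0.12 and that of Notch2 0.09 in place of 0.14, while that of Maml1 was 0.05 in place of 0.01 and that of Rbpj 0.09 in place of 0.07. Over tested protein-coding genes the median SD was 0.094 in place of 0.104. For Notch3 the deviation of replicate 1 was -0.69 in place of -0.81. For Hes1, with 2 read pairs there, it was -2.26 in place of -2.24. Whether GC content or length had a part in these low values was not tested. Replicate 1 remained the lowest for 4 of the 6 tested members, against 27.9% of genes.

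**Figure D4:**
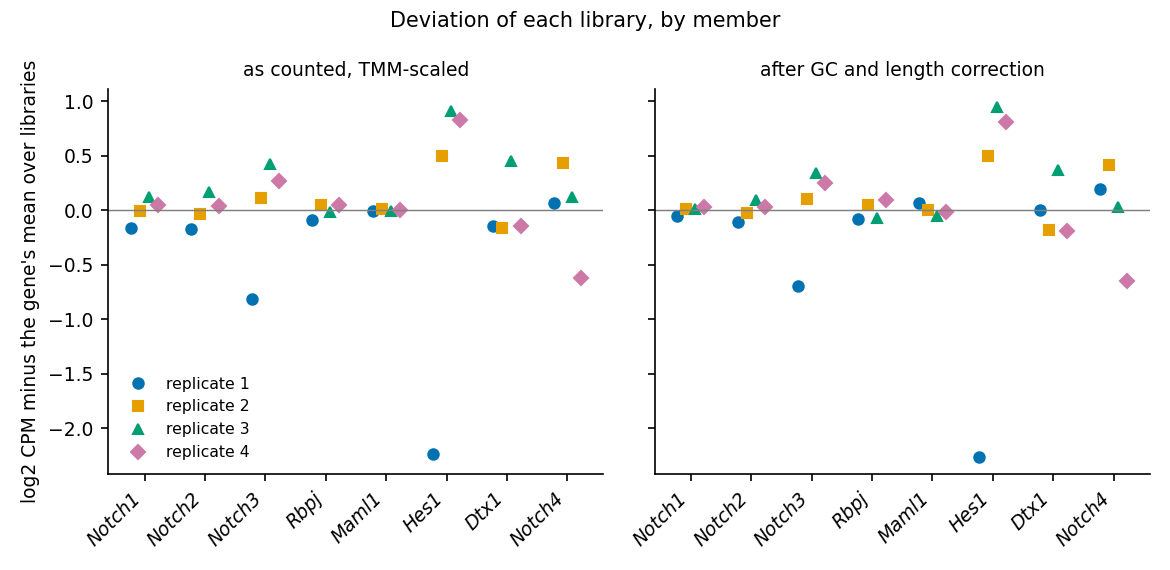
Deviation of each library from a gene's mean over the 4 libraries, in log2 CPM scaled with TMM (left) and after correction for GC content and length (right), for the 8 members. The spread of Notch1 narrows from the left panel to the right, while replicate 1 stays low for Notch3 and Hes1 in both.

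The rest of the pathway was described with 71 genes in 9 lists by role. Of these, 53 (74.6%) reached 1 TPM in every library, against 49.9% of protein-coding genes. Of the 55 that were tested for variation, 0 were called by edgeR, against 0.463% of all genes tested. Of the 55, 3 (Jag2, Dtx3 and Crebbp) had an unadjusted p below 0.05, a share near the 5.69% of all genes tested. Replicate 1 was the lowest library for 30 of the 55 (54.5%), against 31.9% of all genes tested, and after the correction for 18 (32.7%), against 27.9%.

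Ligands were low. Of the 5 canonical ligands, 1 reached 1 TPM in every library, and their median was 0.114 TPM. Jag2, a Jagged-type ligand, had 2.97, 4.93, 5.44 and 6.24 TPM in replicates 1 to 4. It was lowest in replicate 1, and its variation did not pass the test (edgeR adjusted p = 0.708). Dll4, the ligand of thymic epithelium that drives T cell commitment, had 1, 0, 0 and 0 read pairs. Dll3 stood at 0.192 ± 0.221 TPM, Dll1 at 0.114 ± 0.0760, and the non-canonical ligands Dlk2 and Dlk1 at 2.44 ± 0.368 and 0.792 ± 0.353 (SD, n = 4).

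The machinery that processes the receptors was present almost throughout. Of 10 receptor cleavage genes, 9 reached 1 TPM in every library, led by the protease Adam10 at 130.6 ± 10.3 TPM and the gamma-secretase subunit Ncstn at 121.0 ± 10.9 (SD, n = 4). The exception was Aph1c at 0.184 TPM, which has a close paralog, Aph1b, so that its count is uncertain. All 5 genes of receptor glycosylation reached it, including the Fringe enzymes Lfng at 91.8 ± 8.45, Mfng at 91.7 ± 6.05 and Rfng at 44.2 ± 5.23 (SD, n = 4). These enzymes extend the O-fucose on Notch and change which ligands it answers to.

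Among 12 ubiquitin and trafficking regulators, 10 reached 1 TPM in every library, led by Dtx3 at 138.8 ± 18.1, Mib2 at 50.1 ± 6.11 and Mib1 at 25.3 ± 1.07 (SD, n = 4). The Deltex relatives of Dtx1 thus spanned a wide range, since Dtx2 was at 18.0 ± 0.915, Dtx3l at 20.1 ± 2.02 and Dtx4 at 3.38 ± 0.525, against 0.912 ± 0.232 for Dtx1 itself. Of 7 nuclear partners, 6 reached it, led by Snw1 at 163.6 ± 7.65, Ep300 at 34.2 ± 2.76 and Crebbp at 22.4 ± 2.82. All 12 corepressors that can act with Rbpj reached 1 TPM in every library. They were led by Ctbp1 at 174.8 ± 8.62, Hdac1 at 169.9 ± 3.01 and Hdac3 at 98.5 ± 0.470 (SD, n = 4).

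Targets differed from each other by several orders of magnitude. Of the 8 other Hes and Hey family genes, 1 reached 1 TPM in every library, and their median was 0.201 TPM. That gene was Hes6, a family member that is not a typical Notch target and can oppose Hes1, at 49.0, 56.3, 53.5 and 58.0 TPM in replicates 1 to 4. Hes5 stood at 0.274 ± 0.220 and Hey1 at 0.209 ± 0.0932 (SD, n = 4). Of 10 genes known as Notch targets in T-lineage cells, 8 reached 1 TPM, led by Il2ra, a chain of the high-affinity interleukin-2 receptor, at 485.0 ± 37.1, Myc at 425.1 ± 30.8 and Cd3e at 290.3 ± 11.6 (SD, n = 4). Each of these genes also answers to other signals in activated T cells. Nrarp, a feedback inhibitor of Notch and a closer readout of it, had 1.24, 2.07, 3.17 and 2.57 TPM, lowest in replicate 1 and highest in replicate 3 as Hes1 was (edgeR adjusted p = 1.00).

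**Figure D5:**
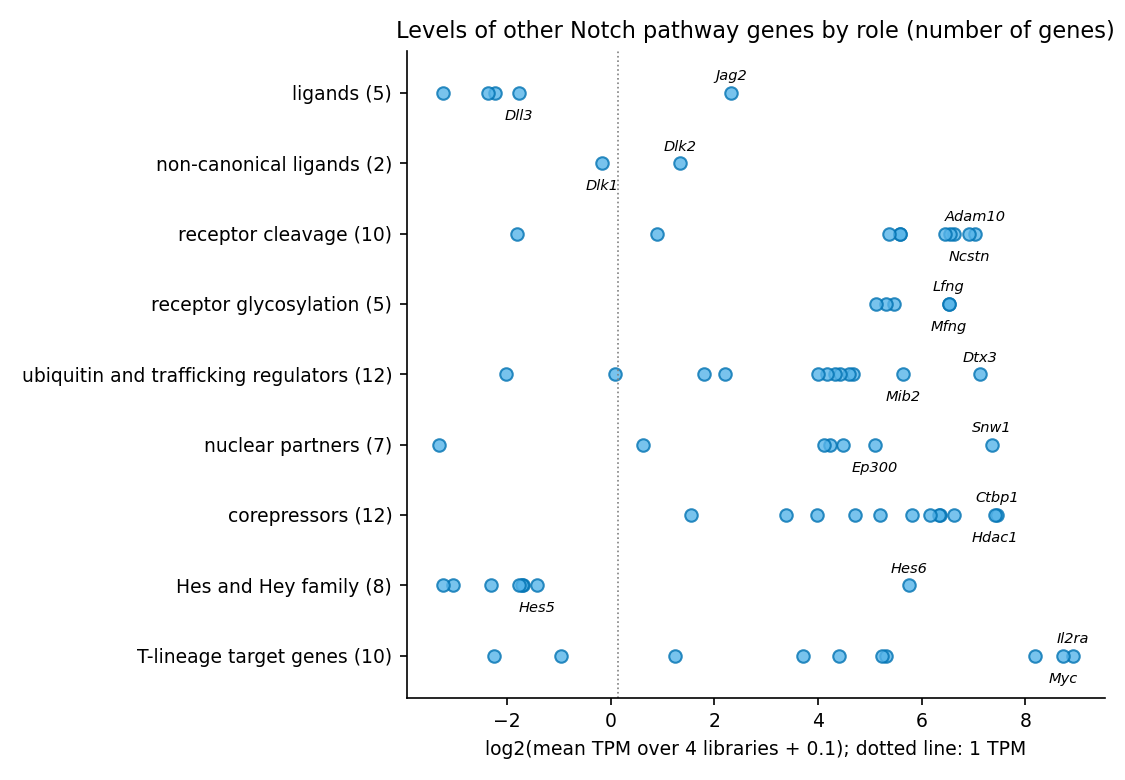
Mean level over 4 libraries of 71 Notch pathway genes by role, as log2(TPM + 0.1), with the 2 most abundant of each list labelled and 1 TPM dotted. Canonical ligands other than Jag2 and the Hes and Hey genes other than Hes6 lie left of the line, and genes of receptor cleavage, glycosylation and corepression lie right of it, with Aph1c at 0.184 TPM as the exception among them.

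Markers of other cell types known to carry Notch2, Notch3 or Notch4 were then summed in each library. Of 8 endothelial markers, Cdh5, Emcn, Cldn5 and Robo4 had 0 counts in all 4 libraries, while Egfl7 stood at 13.2 TPM, and the summed level of the list lay between 11.6 and 14.4 TPM. Of 8 mural and fibroblast markers, Rgs5 and Col3a1 had 0 counts, Pdgfrb stood at 3.22 TPM, and the sum lay between 4.07 and 4.87 TPM. That sum was 4.45 TPM in replicate 1, where Notch3 was lowest. The 6 B cell markers summed to between 0.995 and 2.76 TPM, led by Cd79a at 1.23 TPM, and were highest in replicate 1, where Notch2 was lowest. The 6 myeloid and dendritic markers summed to between 1.90 and 3.61 TPM, and the immature thymocyte markers Rag1, Rag2 and Dntt to at most 0.171 TPM. The part of these cells in the levels of the low members was not tested.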

How the data were processed

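Total RNA of mouse T cells was sequenced in 4 libraries of 1 group. The assay label says total RNA, while the linked library protocol is named for polyadenylated RNA. Each deposited file gives, for every gene, a raw count of read pairs, made with featureCounts 1.4.6-p4 on the exons of GENCODE M13 (mm10), with both ends mapped and reverse strand counting, per the file headers. The options for multiply mapped reads and for reads on several genes were not set, so genes with near copies or same-strand overlaps lose reads. Exons of Notch2 share 541 bases, 5.02% of their length, with Gm42820, and the other members share none. STAR is named in the headers, with no version in the sources used here.

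Identifiers were matched to GENCODE M21 (50376 of 50600). TPM used the summed exon length. Differences between genes were taken as log2(TPM + 0.1) inside each library and tested with an exact two-sided sign-flip test, adjusted over 8 contrasts. Variation was tested in edgeR 4.0.16 (R 4.3.3) with filterByExpr, TMM, an intercept only, the trended dispersion and Benjamini-Hochberg adjustment at 0.05 over all genes tested, after a check on simulated data. Log2 CPM used a prior count of 2. The correction was a loess fit (span 0.3) on GC content and log2 exon length per library, with GC from the longest principal transcript in GENCODE M21. Named genes were all members and the 3 most abundant of each pathway list, of which 1 is not reported here, plus, chosen after their values were seen, other family members, genes at the extremes and single markers. Members and lists were chosen with earlier results of these data known. Alternatives were another pseudocount, CPM, other size factors (DESeq2 1.42.0), no filter, a common dispersion, leaving out each library and, chosen after seeing the data, principal transcript lengths and the lowest library after correction. One read pair more or less matters for genes near 0: a count of 0 allows 3 counts, or 0.0858, 0.0252, 0.0710 and 0.0315 CPM in replicates 1 to 4.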

Additional observations from a re-analysis of the deposited data

Results flagged for a closer look

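A value was picked out where 1 of the 4 libraries lay far from the rest relative to the whole range. Of 63 values checked 9 met this, and no explanation was tested. The cutoff would pick 1 in 20, or 3.15, if the values were independent and normally distributed. These values share libraries, and a gene counted in only 1 library can meet the rule for that reason alone, as Tie1 and Rag1 did. Dll4 was also counted in only 1 library and is not among the 9, so the picks do not cover every gene named above. The number picked therefore cannot be read as an excess.

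Among the members, Dtx1 was 1.26 TPM in replicate 3 against 0.773 to 0.810 in the others, and the log2 difference of Notch2 minus Notch3 was 7.51 in replicate 1 against 6.75 to 6.83. Among other pathway genes, Adam10 was 115.3 TPM in replicate 4 against 133.6 to 136.8, Il2ra was 429.4 in replicate 1 against 500.2 to 505.7, and Dll1 was 0 in replicate 3 against 0.147 to 0.156. Among markers, Trac was 1755 TPM in replicate 1 against 1926 to 1949, and Egfl7 was 11.4 in replicate 3 against 13.6 to 14.0. The picks of Il2ra and Trac rest on TPM. On log2 CPM scaled with TMM their SDs were 0.07 and 0.03. Their variation had an unadjusted p of 0.845 and 0.975 (edgeR goodness of fit). Tie1 was 0.0837 and Rag1 0.0166 TPM in replicate 2, against 0 in each other library.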

How the results depend on the processing

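For 7 of the 8 contrasts the direction was the same with a pseudocount of 1, with CPM scaled with TMM, with principal transcript lengths and without each library in turn. Hes1 minus Dtx1 was -0.74 to 0.12 when 1 library was left out, and took the positive value without replicate 1. With CPM it was -1.63, with Hes1 the higher in 0 of 4 libraries in place of 2. Rbpj minus Maml1, 1.21 in the report, was 2.42 with CPM and 2.44 with principal transcript lengths, and Notch1 minus Notch2, -1.16 in the report, was -0.76 and -0.62. With a pseudocount of 1, Notch3 minus Notch4 was 0.91 in place of 2.63 and Notch1 minus Notch4 5.85 in place of 8.43. CPM takes no account of length, and a larger pseudocount shrinks differences from low genes. Without 1 library the other means ran from -1.17 to -1.15 for Notch1 minus Notch2, and from 1.19 to 1.24 for Rbpj minus Maml1. The number of genes called variable, 66, was 955 under a common dispersion and 41 to 68 when 1 library was left out, with 41 without replicate 1. It was 65 with DESeq2 size factors, 75 without the filter and 79 after the correction for GC content and length. No member was called in any of these except Notch3 under the common dispersion (edgeR adjusted p = 0.0224). Principal transcript lengths moved mean TPM most for Rbpj, by 1.64 times, and gave Maml1 20.8 TPM in place of 29.8, although the length of Maml1 itself was unchanged. Of 71 pathway genes, 53 reached 1 TPM in every library. Depth limits comparisons of Notch4, which had 7 to 32 read pairs in a library. No paired analysis was possible because there was 1 group.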

Other observations

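The pattern of Notch3 over the 4 libraries, the most variable of the tested members, was compared with 12158 protein-coding genes by the root mean square difference of centred log2 CPM. The nearest were Tdgf1 (0.02 log2), Tns2 (0.03) and Npff (0.05), each lowest in replicate 1 and highest in replicate 3. With 4 libraries many genes share such an order, and edgeR called 0 of these 3 genes variable, with an adjusted p of 1.00 each and none below 0.05 unadjusted.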
